A study of Mus musculus with 148 samples.

Results

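The middle of the adult small intestine was described here through the DNA modification of enterocytes in segments 3, 4 and 5 of mice at postnatal day 60 (P60), with segment 3 against segment 5 as the main comparison and segment 4 as the step between. Every P60 sample labelled with one of these segments was taken, which gave 8 samples per segment and 24 of the 148 samples of the study. Mice were of the strain written C57BL/6MCrl in the sample labels and C57BL/6NCrl in the protocols. Enterocytes were released from each piece of intestine with a chelating method, and bisulfite conversion of their DNA was followed by padlock capture and sequencing. Padlock capture uses long probes whose 2 ends, the arms, bind on either side of a target, so that the gap between them can be filled in and read. The sample labels place segment 3 in the distal duodenum, segment 4 in the proximal jejunum and segment 5 in the medial jejunum, whereas the study's text counts segment 3 as proximal jejunum. The files hold DNA calls alone, so the enterocyte identity could not be checked against marker genes, and in a bulk sample a change of cell shares and a change within cells cannot be told apart. The labels number the samples of a segment without saying which mouse each came from, so p-values measure the spread between these samples. The study's methods give fewer mice per segment for its own adult analysis than there are samples here, while calling its sequenced samples unique. The study compared mRNA between segments with repeated-measures analysis of variance, and average modification at chosen sites with one-way analysis of variance. Whether some samples share an animal is therefore not known. If samples of the same segment do, the p-values are too small. If samples of different segments do, the main tests leave that pairing out.

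*Lct* encodes lactase, the brush border enzyme of enterocytes that splits milk sugar, and adult expression is known to be concentrated in the middle of the small intestine. *Mcm6*, which encodes a subunit of the helicase used in DNA replication, lies just upstream of *Lct* on the same strand, and in people variants inside it are tied to lactase persistence. Cytosines followed by guanine (CpGs) are the usual sites of methylation, which bisulfite sequencing reads as protected cytosines together with other modifications. Imprinted genes carry methylation on 1 parental copy, so their control regions are expected near the middle of the scale in any tissue.

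In each sample, percent modification was the share of reads that called a cytosine modified, at cytosines with more than 30 reads and with both strands kept apart. The locus held 1102 listed CpGs and the imprinted targets 2660, of which 624 and 775 had more than 30 reads in all 24 samples. The median locus CpG was read between 1053 and 3556 times per sample. 1 library stood apart: segment 4 replicate 1 was the highest of 8 in 8 of 11 CpG clusters of the locus and the lowest of 8 at the *Dlk1-Meg3* region, so results for segment 4 are given with and without it.

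Between segments 3 and 5, DNA modification of the *Lct*–*Mcm6* locus was higher in segment 5. Of 664 locus CpGs tested, 26 differed after Benjamini-Hochberg adjustment (quasi-binomial F test, adjusted p under 0.05), 23 of them higher and 3 lower in segment 5. This is 3.92% of the locus CpGs, against 4.55% of all 1538 CpGs tested (2.67% higher and 1.89% lower in segment 5), so the share called in the locus was close to that of the whole table. In the imprinted targets 44 of 874 CpGs passed, 18 higher and 26 lower. Without segment 5 replicate 5 the 70 CpGs in all became 43. The 26 locus CpGs changed by 1.51 to 22.9 percentage points, with a median size of 4.71 points. They lay in *Lct* exons 1, 5, 8, 9, 12 and 17 and introns 2, 8, 9 and 13, and in *Mcm6* exons 4 and 13 and introns 6 and 12. A stricter rule took the study's threshold (Bonferroni adjusted p under 0.01). It adjusted over CpGs and CpHs of the locus and the imprinted targets together, whereas the study describes cytosines of the locus alone. Under this rule 3 CpGs passed, or 0.195% of those tested, 1 in *Lct* exon 1 and 2 in the *Dlk1-Meg3* region. With 1 sample left out this count was 1 or 2 in all cases except without segment 5 replicate 1 or 7, and it was 1 with lane as a covariate and 0 with either replicate block.

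**Figure D1:**
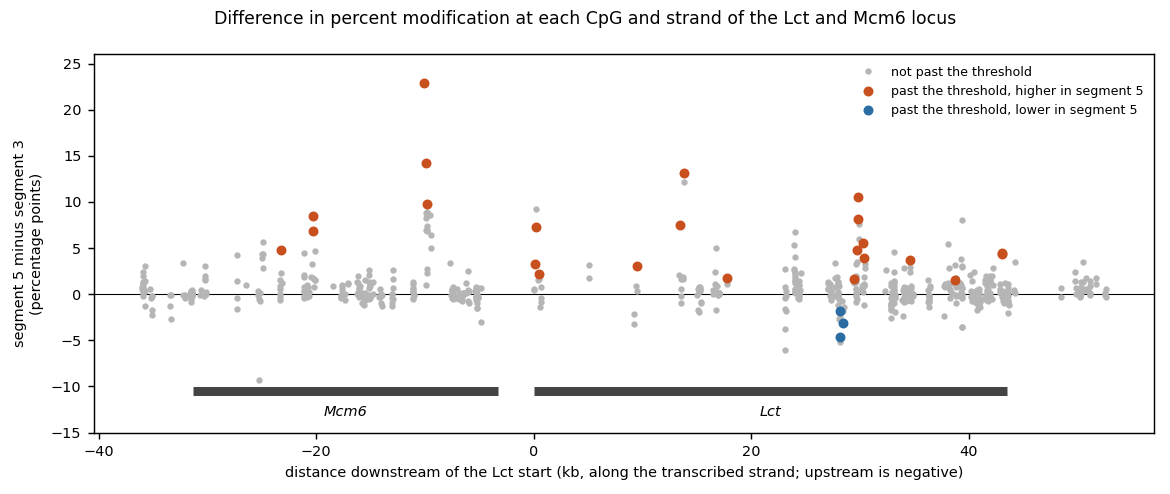
Each point is 1 CpG on 1 strand, placed by its distance from the start of Lct along the transcribed strand (horizontal axis, kb) and by the mean of segment 5 minus the mean of segment 3 (vertical axis, percentage points), with bars for both genes. The 23 CpGs past the threshold and higher in segment 5 are spread over many exons and introns of both genes, and the 3 lower ones lie together in Lct exon 8.

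A cytosine read on 1 strand has a partner on the other strand that is captured by another probe, so the partners give a second reading in the same samples. Of the 26 locus CpGs, 17 had a tested partner, and all 17 partners differed in the same direction, 11 of them with an unadjusted p under 0.05. Among the 17, 4 are partners of each other, so their agreement is counted from both sides. The partner of the *Mcm6* exon 13 CpG at chr1:128338194 was read only inside a probe arm and gives no second reading. All 26 were read between the arms of a probe. Over the locus CpGs with both strands tested, the differences on the strands had a Pearson correlation of 0.69 across CpGs, which are not independent replicates and come from the same samples.

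The CpG with the lowest p of the locus was in *Lct* exon 1 at chr1:128328060 (GRCm38, minus strand). It is centred in the stretch chr1:128328030-128328089, shown on the transcribed strand with every CpG in capitals and the measured one at bases 30 and 31.
Lct exon 1: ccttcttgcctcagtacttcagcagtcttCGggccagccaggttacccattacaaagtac
Its modification had a lowest, median and highest value of 70.5%, 72.6% and 74.9% in segment 3, and of 77.2%, 80.3% and 82.8% in segment 5. No sample of segment 3 reached any sample of segment 5. Means were 72.5% ± 1.35 (SD) and 79.7% ± 2.04, a rise of 7.25 points (Bonferroni adjusted p = 0.00604, exact permutation p = 0.000155, the smallest that 12870 splits of 8 against 8 can give). Segment 4 spread from 69.8% to 80.9% and overlapped both. The partner cytosine rose by 9.18 points (63.996% to 73.2%), with a Benjamini-Hochberg adjusted p of 0.0549.

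To describe stretches rather than single CpGs, clusters were taken from P60 segments 1, 2, 6, 7, 8 and 9 alone, so that none of the 24 samples chose them. Of the 47 samples of those segments, 1 segment 1 sample whose file is marked as a repeat library was left out. In the other 46 samples 84 locus CpGs differed among segments, and 64 of them lay in 11 clusters of at least 3 within 500 bp. Of the 61 cluster CpGs that rose from segments 1 and 2 to segments 8 and 9, 60 were also higher in segment 5 than in segment 3, and the 3 that fell were all lower in segment 5. Of all 664 locus CpGs tested, 416 were higher and 248 lower in segment 5. 18 of the 64 passed the Benjamini-Hochberg threshold between segments 3 and 5, which is 28.1% against 4.55% of all CpGs tested. The share was 23.8% for all 84 chosen locus CpGs and 40% for the 85 imprinted CpGs chosen in the same way (34 of 85), so a high share was not particular to the locus clusters. As cluster means, 10 of 11 (90.9%) differed between segments 3 and 5 in exact permutation tests with Benjamini-Hochberg adjustment, 9 higher and 1 lower in segment 5. No overlap between the segments was seen in 4 of the 11 clusters, in 0 of 57 annotated features and in 1 of 20 imprinted targets.

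**Figure D2:**
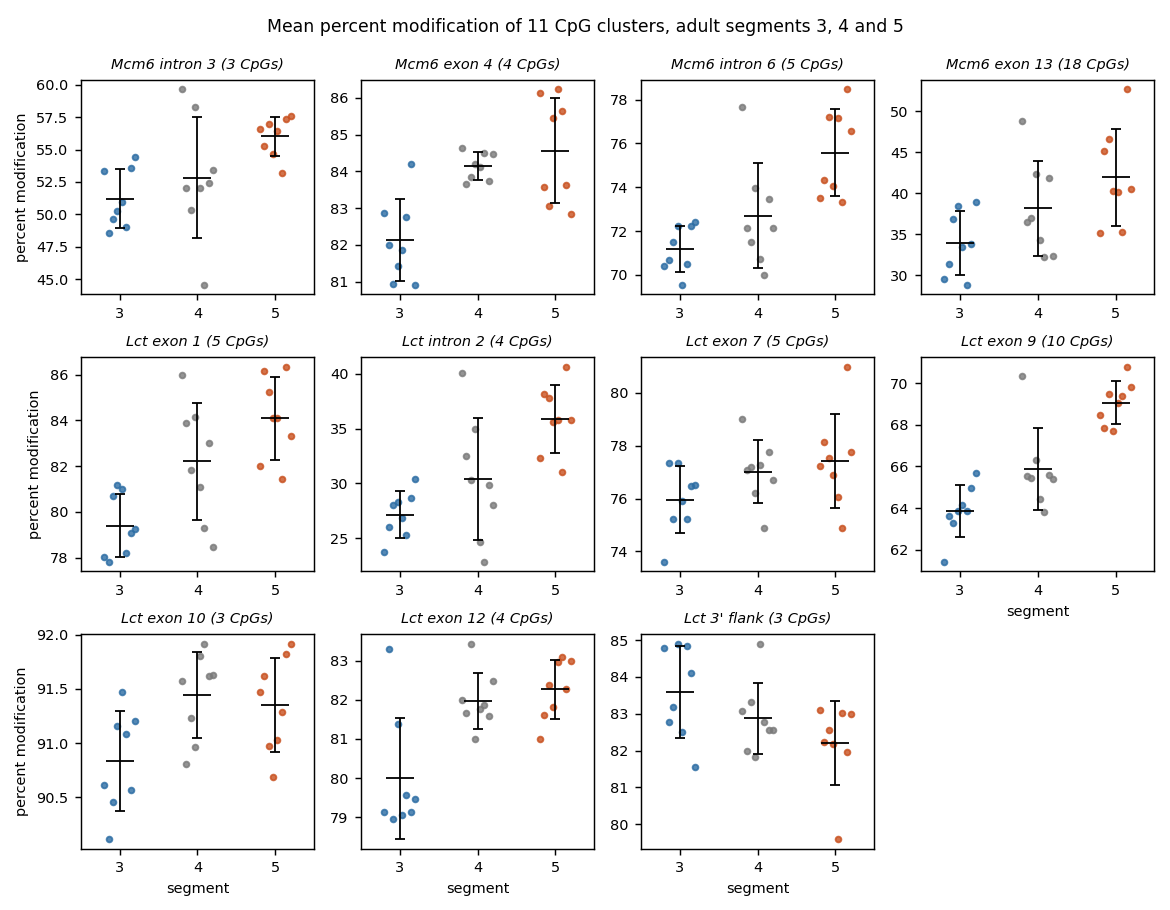
Mean percent modification (vertical axes, a different range in each panel, none starting at 0) of the 11 clusters in the 8 samples of segments 3, 4 and 5, with the mean and SD as bars. Segments 3 and 5 do not overlap in the clusters of Mcm6 intron 6, Lct exon 1, Lct intron 2 and Lct exon 9, and the high sample of segment 4 in most panels is replicate 1.

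The cluster in *Lct* intron 2 (chr1:128314519-128314931, 4 CpGs) had the largest difference of the 11. Its lowest, median and highest values were 23.7%, 27.5% and 30.4% in segment 3 and 30.996%, 35.8% and 40.7% in segment 5, so the segments did not overlap. The mean rose from 27.2% ± 2.12 to 35.9% ± 3.12 (SD), by 8.73 points (95% interval 5.85 to 11.6, exact permutation p = 0.000155, adjusted p = 0.000427). The CpG with the lowest p in it lies at chr1:128314856 (minus strand), at bases 30 and 31 of chr1:128314826-128314885 on the transcribed strand.
Lct intron 2: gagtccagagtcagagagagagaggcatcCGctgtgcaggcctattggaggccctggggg
That CpG went from a median of 47.9% to 55.1%, a difference of 7.52 points, and the ranges overlapped (37.5% to 52.5% and 50.4% to 57.7%). At chr1:128314520 in the same intron the difference was 13.2 points (27.2% ± 4.82 and 40.3% ± 6.60).

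In the cluster of *Lct* exon 1 (chr1:128327865-128328160, 5 CpGs), segment 3 ran from 77.8% through a median of 79.2% to 81.2% and segment 5 from 81.5% through 84.1% to 86.4%. The highest sample of segment 3 was below the lowest of segment 5. The mean rose by 4.70 points, from 79.4% ± 1.38 to 84.1% ± 1.80 (SD, exact permutation p = 0.000155, adjusted p = 0.000427), and all 5 CpGs were higher in segment 5.

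The cluster at *Mcm6* exon 13, which reaches from intron 12 to intron 13 (chr1:128337771-128338385, 18 CpGs), lies upstream of *Lct*. It is densely set with CpGs, as the 240 bases with most of its CpGs show (chr1:128338088-128338327, transcribed strand, CpGs in capitals).
Mcm6 exon 13: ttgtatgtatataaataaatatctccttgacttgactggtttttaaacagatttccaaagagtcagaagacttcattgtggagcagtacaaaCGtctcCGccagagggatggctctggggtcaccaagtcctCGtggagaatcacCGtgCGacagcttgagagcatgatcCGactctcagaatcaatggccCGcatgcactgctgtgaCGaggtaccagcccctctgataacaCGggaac
All 18 CpGs, counted per strand, were higher in segment 5. The stretch shown holds 14 of these, and 9 CpGs in its sequence. The samples of segment 3 ran from 28.8% through a median of 33.6% to 38.9%, and those of segment 5 from 35.1% through 40.4% to 52.7%, with overlap between the segments. The mean rose from 33.9% ± 3.89 to 41.97% ± 5.93 (SD), by 8.08 points (95% interval 2.70 to 13.5, exact permutation p = 0.00544, adjusted p = 0.00748). This difference was close in size to that of *Lct* intron 2, with a larger spread between samples. Across the wider intestine the same 18 CpGs stood at 36.3% in segment 1, 53.3% in segment 6 and 80.04% in segment 9.

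The largest difference of any locus CpG past the threshold was at the upstream edge of this cluster, in *Mcm6* intron 12 at chr1:128338385 (minus strand, read 410 times in the median sample). It is at bases 30 and 31 of chr1:128338355-128338414 on the transcribed strand.
Mcm6 intron 12: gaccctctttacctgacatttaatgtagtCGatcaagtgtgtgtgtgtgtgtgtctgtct
Segment 3 had 22.6%, 32.9% and 40.3% as lowest, median and highest values, and segment 5 had 44.6%, 53.95% and 68.9%. The segments were separate, with means of 31.9% ± 7.50 and 54.7% ± 7.66 (SD), 22.9 points apart (Benjamini-Hochberg adjusted p = 0.00210, exact permutation p = 0.000155). Segment 4 lay between them with a median of 39.5%. In *Mcm6* exon 13 itself, the CpG at chr1:128338194 (plus strand) rose by 14.2 points and that at chr1:128338119 (minus strand) by 9.80 points. The minus-strand partner of the first stood at 2.15% and 3.15%, but was read only inside a probe arm, whose bases come from the probe. Without CpGs read only in an arm or outside any probe of their strand, the cluster differed by 8.50 points (adjusted p = 0.00928, exact permutation test).

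The cluster around *Lct* exon 9, from intron 8 to intron 9 (chr1:128297977-128298853, 10 CpGs), had the most CpGs past the threshold, 6 of 10, and all 10 were higher in segment 5. It ran from 61.4% to 65.7% in segment 3 (median 63.9%) and from 67.7% to 70.8% in segment 5 (median 69.2%), with a gap between them. The mean rose by 5.21 points, from 63.9% ± 1.25 to 69.1% ± 1.04 (SD, exact permutation p = 0.000155, adjusted p = 0.000427), by 5.42 points on the plus strand and 5.00 points on the minus strand. Its leading CpG is at chr1:128298482 (minus strand), at bases 30 and 31 of chr1:128298452-128298511 on the transcribed strand.
Lct exon 9: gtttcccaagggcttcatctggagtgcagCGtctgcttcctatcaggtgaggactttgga
There the medians were 48.5% and 55.8%, the ranges 45.4% to 50.2% and 52.6% to 63.2%, and the means 8.11 points apart (Benjamini-Hochberg adjusted p = 0.00176). The other strand of this CpG differed by 10.5 points (Benjamini-Hochberg adjusted p = 0.00529).

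Further upstream in *Mcm6*, the cluster of intron 6 and exon 7 (chr1:128348392-128348714, 5 CpGs) rose from 71.2% ± 1.06 to 75.6% ± 1.99 (SD), with ranges of 69.6% to 72.4% and 73.3% to 78.5% that did not meet (exact permutation p = 0.000155). Both strands of 1 CpG there, chr1:128348621 and chr1:128348622, passed the threshold with rises of 6.87 and 8.53 points. The cluster in *Mcm6* intron 3 rose by 4.80 points (51.2% ± 2.26 to 56.01% ± 1.52, adjusted p = 0.00171, exact permutation test). Its leading CpG lay outside any probe of its strand, and without it the difference was 4.37 points. The clusters of *Mcm6* exon 4 and *Lct* exon 12 rose by 2.45 and 2.27 points (adjusted p = 0.00570 and 0.00684, exact permutation tests). The whole exons rose by 1.15 and 2.15 points. The cluster of *Lct* exon 10 rose by 0.52 points and the cluster in the 3′ flank of *Lct* fell by 1.39 points, both close to the threshold (adjusted p = 0.0424 and 0.0408, exact permutation tests). These last calls were lost when some single samples were left out, as the adjusted p then passed 0.05 in 9 and 8 of 16 cases. The cluster of *Lct* exon 7 was 1.47 points higher, with an interval of -0.13 to 3.14 and an adjusted p of 0.0706 (exact permutation test), and it passed without segment 5 replicate 6 (1.84 points, adjusted p = 0.0192) and with samples paired by library number (adjusted p = 0.0286, exact sign-flip permutation test).

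The direction was opposite in *Lct* exon 8, which neighbours the exon 9 cluster. There 3 CpGs passed the threshold and all were lower in segment 5. At chr1:128300143 (minus strand) the values ran from 83.8% to 87.3% in segment 3 (median 86.5%) and from 77.2% to 84.7% in segment 5 (median 81.6%), with some overlap, and the mean fell by 4.65 points (Benjamini-Hochberg adjusted p = 0.00407). Its plus-strand partner differed by -5.17 points. At chr1:128299886 the mean fell by 3.11 points and at chr1:128300146 by 1.78 points. The whole exon, with 35 CpGs, changed by -0.33 points (interval -0.95 to 0.23, exact permutation p = 0.288).

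Some other stretches of the locus did not show a difference. *Mcm6* intron 1, a stretch of low modification near the start of that gene, stood at 8.77% ± 1.68, 8.32% ± 0.805 and 9.74% ± 1.46 (SD) in segments 3, 4 and 5 (difference between segments 3 and 5 of 0.96 points, interval -0.73 to 2.59, exact permutation p = 0.250). The 46 CpGs upstream of *Mcm6* were at 30.5% in both segments, with an interval of -0.14 to 0.21 points for the difference. Over the 57 annotated exons, introns and flanks with at least 3 CpGs, 10 passed (17.5%), all higher in segment 5, and from segment 3 to 4 1 passed (1.75%). The 10 became 4 to 6 when segment 3 replicate 1, 2, 3 or 5 or segment 5 replicate 1, 2, 3, 4 or 8 was left out.

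The mean of all 624 locus CpGs rose by 0.78 points, from 76.8% ± 0.328 to 77.5% ± 0.439 (SD, exact permutation p = 0.00140), and by 0.48 points when reads were pooled instead of percentages averaged. For the 560 locus CpGs outside the 11 clusters the difference was 0.31 points (78.7% and 79.02%, exact permutation p = 0.0681). Cytosines outside CpGs stood at 0.373% ± 0.018 and 0.383% ± 0.028 over 9742 sites of the locus (difference 0.01 points, interval -0.0152 to 0.0352, exact permutation p = 0.402).

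Fewer CpGs passed in each step than between segments 3 and 5. From segment 3 to segment 4, 9 of 1546 CpGs passed (0.582%), 4 of them in the locus, and from segment 4 to segment 5, 0 of 1534 did (0%) in the quasi-binomial fit, where 114 had an unadjusted p under 0.05. With all 24 samples in the fit, 1 CpG passed for the second step. Without segment 4 replicate 1, 4 CpGs passed for the first step and 7 for the second. A linear trend over the 3 segments passed at 88 of 1531 CpGs (5.75%), 34 in the locus (28 rising and 6 falling, where 3.14% of all CpGs rose and 2.61% fell), and at 95 without that library.

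Among the clusters, 5 of 11 differed from segment 3 to 4 (45.5%) and 1 from segment 4 to 5 (9.09%) in exact permutation tests with Benjamini-Hochberg adjustment. These counts were 1 and 4 without segment 4 replicate 1. *Mcm6* exon 4 is the cluster that passed for the first step either way, by 2.03 points with that library and 1.96 points without it. The *Lct* exon 9 cluster passed for the second step either way, by 3.21 and 3.85 points. *Lct* intron 2, *Mcm6* intron 6 and *Mcm6* intron 3 passed for the second step without the library alone, by 6.86, 3.59 and 4.15 points (adjusted p = 0.0120, 0.0120 and 0.0333, exact permutation tests). The *Mcm6* exon 13 cluster passed in neither step, with differences of 4.29 and 3.795 points, or 2.76 and 5.32 points without the library. Whether the 2 steps differ from each other was not tested.

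Segment 4 replicate 1 had values within or above the range of segment 5 in several clusters, and whether it came from a more distal piece of intestine cannot be told from the labels. It had 48.9% in the *Mcm6* exon 13 cluster, where its 7 fellows had 32.2% to 42.4% and segments 5 and 6 had means of 41.97% and 53.3%. In the *Lct* exon 9 cluster it had 70.3%, above 63.8% to 66.3% in the others and near the mean of 69.1% in segment 5. Among imprinted targets it lay outside the range of segment 5 in some and inside it in others. In *Mcts2-H13* it had 37.6% (fellows 26.04% to 33.2%, segment 5 20.8% to 34.9%). In *Peg10-Sgce* it had 42.3% (fellows 35.7% to 37.98%, segment 5 35.2% to 39.96%). Its 74.3% in *Dlk1-Meg3* was also outside, and its 48.9% in *Plagl1* was inside.

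Samples of 1 segment also differed among themselves in a shared way. Over 66 pairs, made of the 11 clusters and the mean of the remaining locus, 198 relations were computed within segments 3, 4 and 5, of which 9 passed Benjamini-Hochberg adjustment, 6 in segment 4, 3 in segment 5 and 0 in segment 3. All 9 were positive and joined *Mcm6* exon 13, *Mcm6* intron 6 and *Lct* exon 1, intron 2 and exon 9. In the 8 samples of segment 5, *Lct* intron 2 rose and fell with *Mcm6* exon 13 (Pearson r = 0.96, exact permutation p = 0.000521, adjusted p = 0.0258, Spearman rho = 0.93, exact permutation p = 0.00223) and with *Lct* exon 1 (r = 0.97, exact permutation p = 9.92e-05, adjusted p = 0.00982, rho = 0.93, exact permutation p = 0.00223). Without the 2 samples farthest from the median of *Lct* intron 2, r was 0.97 and 0.95. The third relation in segment 5, between *Lct* exon 1 and *Mcm6* exon 13, had r = 0.92, exact permutation p = 0.00149 and adjusted p = 0.0421 (rho = 0.86, exact permutation p = 0.0107), and r = 0.92 without the 2 farthest samples. In segment 4 the 6 relations kept r between 0.76 and 0.96 over the 7 samples other than replicate 1. In segment 3, *Lct* intron 2 and *Mcm6* exon 13 had r = 0.89 and rho = 0.90 over 8 samples, with an exact permutation p of 0.00350 and an adjusted p of 0.0629. The mean of the locus outside the clusters passed with no cluster. Each sequencing lane held 2 or 3 samples of a segment, too few for a value within lanes.

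**Figure D3:**
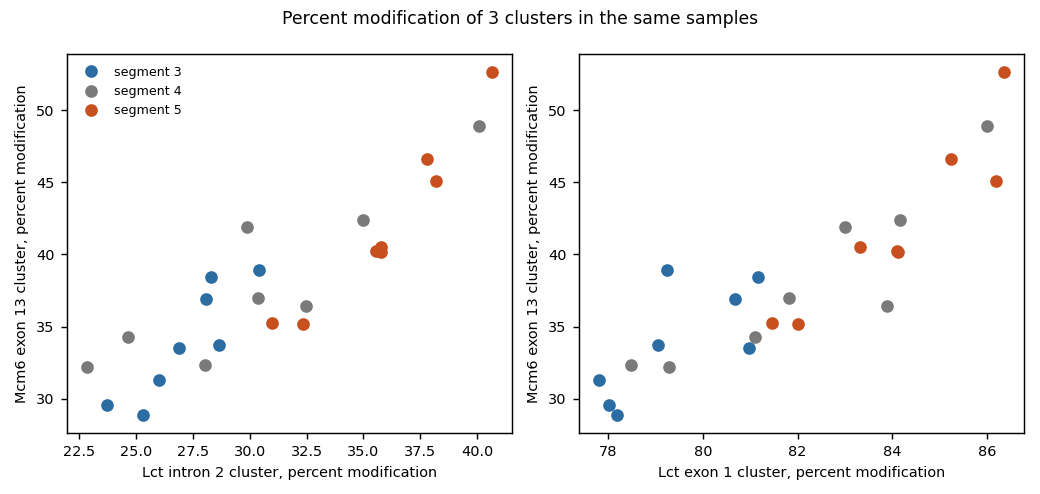
Percent modification of the Mcm6 exon 13 cluster (vertical axes) against the Lct intron 2 cluster (left) and the Lct exon 1 cluster (right) in the 24 samples, 1 point per sample, coloured by segment. Within segment 5 the points rise together (r = 0.96 and 0.92 over 8 samples), and the grey point among the highest is segment 4 replicate 1.

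The imprinted targets were captured in the same libraries. Of 20 targets with at least 3 CpGs, 2 (10%) differed between segments 3 and 5 as means, the intergenic control region between *Dlk1* and *Meg3* and the region of *Plagl1*. *Dlk1* and *Meg3* are expressed from opposite parental copies under that region, and *Plagl1* encodes a zinc finger factor. With samples paired by replicate or library number neither passed (adjusted p = 0.0781, exact sign-flip permutation test). Over 8 pairs this exact sign-flip permutation test cannot go below p = 0.00781 before adjustment. After adjustment over 20 targets, 2 targets at that floor cannot pass, so the pairing cannot decide either call. From segment 3 to 4, 2 of 20 targets passed (10%), *Dlk1-Meg3* and *Peg13-Trappc9*, both lower in segment 4, and from segment 4 to 5, 0 (0%) did in exact permutation tests, where 3 had an unadjusted p under 0.05. These counts were 3 and 1 without segment 4 replicate 1. The mean over all 775 imprinted CpGs changed by -0.30 points (51.3% and 51.02%, interval -0.82 to 0.24, exact permutation p = 0.249), and by -0.34 points from segment 3 to 4.

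The *Dlk1-Meg3* region held 19 of the 44 imprinted CpGs past the threshold, all lower in segment 5. The 240 bases with most of them lie at chr12:109526310-109526549 (plus strand, CpGs in capitals).
Dlk1-Meg3: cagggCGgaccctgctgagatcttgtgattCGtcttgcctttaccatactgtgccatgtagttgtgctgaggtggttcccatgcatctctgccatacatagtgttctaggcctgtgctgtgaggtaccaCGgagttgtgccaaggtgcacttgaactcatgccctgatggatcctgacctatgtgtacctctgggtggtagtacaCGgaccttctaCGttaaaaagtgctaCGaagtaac
At its second CpG, chr12:109526341 on the minus strand, segment 3 ran from 69.9% through a median of 72.2% to 76.3%, segment 4 from 60.8% through 66.3% to 67.6%, and segment 5 from 55.2% through 58.8% to 64.3%. Segment 3 overlapped with neither of the others. The mean fell by 13.6 points from segment 3 to 5 (72.6% ± 1.91 to 58.9% ± 2.79, SD, Bonferroni adjusted p = 0.000182), the lowest p of the whole table, and the plus strand of the same CpG fell by 10.5 points (71.9% to 61.4%). The first CpG fell by 10.9 points on the minus strand (Bonferroni adjusted p = 0.00657) and by 8.85 points on the plus strand.

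Averaged over 65 CpGs, the region fell from 78.5% ± 0.703 to 76.99% ± 1.22 and 75.5% ± 0.512 (SD) in segments 3, 4 and 5. Segment 3 (77.7% to 79.6%) and segment 5 (75.0% to 76.3%) did not overlap, with a difference of -2.94 points (interval -3.61 to -2.28, exact permutation p = 0.000155, adjusted p = 0.00311). 6 CpGs were higher in segment 5, among them 4 on the plus strand at the start of the region, none past the threshold, of which chr12:109525990+ had the largest difference, 14.2 points (Benjamini-Hochberg adjusted p = 0.137). Without segment 4 replicate 1, which had 74.3%, both steps passed (-1.11 and -1.83 points, adjusted p = 0.0445 and 0.00311, exact permutation tests). Beyond segment 5 the mean did not keep falling, at 76.1% in segment 6 and 77.5% in segment 9.

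**Figure D4:**
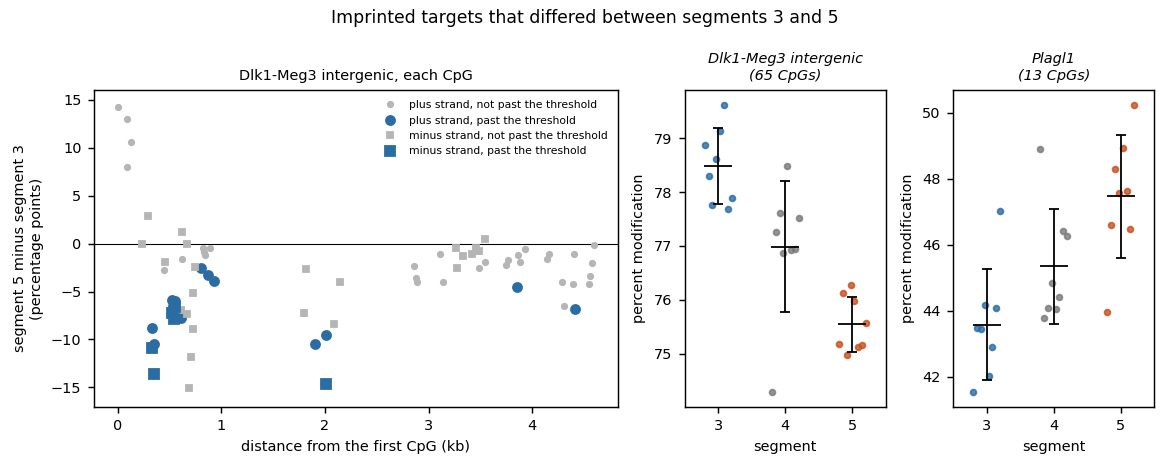
Left, the mean of segment 5 minus that of segment 3 (percentage points) at each tested CpG of the Dlk1-Meg3 region, by distance from its first CpG (kb) and by strand. Middle and right, mean percent modification of the Dlk1-Meg3 and Plagl1 regions per sample, with mean and SD: the first falls by 2.94 points and the second rises by 3.88 points from segment 3 to 5.

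The *Plagl1* region rose from 43.6% ± 1.67 to 47.5% ± 1.87 (SD) over 13 CpGs, by 3.88 points (interval 1.97 to 5.75, exact permutation p = 0.00186, adjusted p = 0.0186). Its samples ran from 41.5% to 47.03% in segment 3 and from 43.96% to 50.2% in segment 5, with overlap. At chr10:13089855 the values were separate, from 57.8% to 64.6% in segment 3 and from 67.2% to 73.0% in segment 5, with a rise of 9.48 points (Benjamini-Hochberg adjusted p = 0.000338). The mean difference was 8.63 points over the 5 plus-strand CpGs and 0.91 points over the 8 minus-strand CpGs, which are other sites, and 1 of the 3 CpGs past the threshold was on the minus strand (5.91 points).

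Elsewhere, single CpGs changed while the mean of their target did not pass. In *Snrpn*, 6 CpGs were higher in segment 5 by 4.59 to 8.15 points, and the target changed by 0.79 points (interval -1.57 to 3.15). *Zdbf2* had 5 such CpGs, with rises of 2.26 to 7.56 points, and *Mest* had 2, with rises of 4.11 and 6.43 points. Of 4 CpGs in *Peg13-Trappc9*, 3 fell and 1 rose. The largest fall was 11.9 points at chr15:72801572, from a median of 44.7% (41.3% to 47.2%) to 32.6% (27.5% to 37.95%), and the mean of the target differed by -0.76 points (adjusted p = 0.0995, exact permutation test). *Peg10-Sgce* and *Slc38a4* had 2 lower CpGs each and *Peg3-Usp29* 1 higher CpG. Among 85 imprinted CpGs that differed in segments 1, 2 and 6 to 9, 46 of 51 rising ones were higher and 31 of 34 falling ones lower in segment 5 than in segment 3. Over all 874 imprinted CpGs tested, the median difference was -0.43 points.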

How the data were processed

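Per the labels and the study's methods, the authors trimmed reads with Trimmomatic 0.32, mapped them with Bismark to GRCm38 and deposited, per sample, counts of modified and unmodified reads at each cytosine and strand, without normalization. These counts were used as deposited. Reads summed over the locus cytosines ranged from 15966974 to 51340638 per sample. Molecules cannot be counted from such reads, so depth bounds counting error only.

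A quasi-binomial F test was fitted to each cytosine read more than 30 times in 3 or more samples per segment, in Python 3.11.15 (NumPy 2.4.6, SciPy 1.17.1), checked on simulated data. Bonferroni adjustment ran over CpGs and CpHs (threshold 0.01), Benjamini-Hochberg over CpGs (0.05). Region means used CpGs with more than 30 reads in all 24 samples and two-sided exact permutation tests, adjusted within 11 clusters, 57 features or 20 targets, and the intervals invert the same test at the 95% level. Gene models were GENCODE M21, on a reference whose context was the same at 47772 of 47909 cytosines. CpGs to be named were the 12 of the locus with the lowest p, the 3 lowest among those lower in segment 5, and the lowest of each cluster or target. Not all of these appear in the text. Other CpGs named in the text were chosen after their values were seen. The members and lists were chosen with earlier results of these data known. Correlations and the checks without segment 4 replicate 1, or without CpGs read only in a probe arm or outside any probe of their strand, were added after seeing the data. Sequences were read from the RefSeq GRCm38 genome. Alternatives used coverage minimums of 10 and 100 reads, limma 3.58.1 (R 4.3.3), lanes, blocks, pooled reads, summed strands and single samples left out. Not every imprinted target is described by name.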

Additional observations from a re-analysis of the deposited data

Results flagged for a closer look

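Values far from the rest of their segment were sought in sets of 8 samples with Dixon's critical value at the 95% level, which chance passes in about 1 of 20 sets, and 7 passed, or 5.98% of the sets, a share close to that of chance. In segment 4 replicate 1, 3 values were the highest of the segment, 70.3% in the *Lct* exon 9 cluster (others 63.8% to 66.3%), 64.1% at the CpG of *Mcm6* intron 12, chr1:128338385 (others 32.5% to 45.9%), and 71.6% at the *Plagl1* CpG chr10:13089855 (others 63.3% to 65.2%). Its value in the *Dlk1-Meg3* region, 74.3% (others 76.9% to 78.5%), was below the mean of 75.5% in segment 5. Segment 5 replicate 5 was low in the *Lct* 3′ flank cluster, at 79.6% (others 81.96% to 83.1%), and at the *Lct* exon 8 CpG chr1:128299886, at 78.4% (others 81.1% to 83.2%). Segment 5 replicate 7 was high at the *Lct* exon 9 CpG chr1:128298482, at 63.2% (others 52.6% to 57.2%).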

How the results depend on the processing

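Between segments 3 and 5, the 70 CpGs of the Benjamini-Hochberg rule became 26 with adjustment over CpGs and CpHs, 44 with the replicate block and 53 with the block by library number, and stood between 61 and 86 under the other alternatives that kept all 16 samples. Leaving out 1 sample gave 43 (without segment 5 replicate 5) to 81. The 3 CpGs of the Bonferroni rule became 1 with lane as a covariate, 0 with either block, 9 with strands summed, 5 with all 24 samples in the fit, 9 with adjustment over CpGs only, and 1 to 3 with 1 sample left out (3 only without segment 5 replicate 1 or 7). From segment 3 to 4 the 9 CpGs became 3 with limma, 4 with lane, 1 and 2 with the replicate block by number and by library, and 4 without segment 4 replicate 1. From segment 4 to 5 the count was 1 with all 24 samples in the fit, 7 without segment 4 replicate 1 and 0 otherwise. The 88 CpGs with a trend became 55 with the replicate block. The 10 clusters became 8 within lanes and 9 or 10 with the blocks, and 8 to 10 with 1 sample left out. The 10 annotated features became 4 with a minimum of 100 reads, 5 within lanes, 0 with the replicate block (9 by library number) and 4 to 10 with 1 sample left out. With the replicate block, features at the smallest possible p of 0.00781 had an adjusted p of 0.0557 (exact sign-flip permutation test). They could not pass there, so that 0 cannot decide their calls. The 2 imprinted targets became 0 with either block, where an exact sign-flip permutation over 8 pairs cannot go below p = 0.00781, and 2 to 3 with 1 sample left out. The locus mean kept its sign and call, at 0.48 to 0.88 points, as did the imprinted mean and the CpHs, which were not called in any alternative. None of the clusters, whole-locus and control levels, or features and targets past the threshold changed direction under the alternatives run. The direction of the other regions named here was not followed through the alternatives. The cause of the changed counts was not tested.

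Pairing by number did not meet the rule that every pair correlate above 0.1, but sharing of animals is not excluded. Same-numbered samples of different segments had correlations of their deviations of -0.17 to 0.20 (mean 0.04, against -0.0055 for other numbers), and 9 of 24 samples correlated best with a sample of their own number, which 2 of 16 candidates share. Runs of 9 consecutive library numbers gave a mean of 0.08 (-0.011 between runs). There 12 of 24 samples correlated best with a sample of their own run, which 2 of 16 candidates share. The place in the run equalled the segment in 24 of 24 samples.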
